A study of Mus musculus with 6 samples.

Results

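Fcer1g+ Klrb1c- cells were kidney double negative (DN) T cells in which the transcript of the Fc receptor gamma chain, Fcer1g, was detected and neither Klrb1c, which encodes NK1.1, nor Pdcd1, which encodes PD-1, was. DN T cells carry an αβ T cell receptor without the CD4 or CD8 coreceptor. A barcode of a DN library was taken into this population when it held at least 500 detected genes and at most 20% mitochondrial UMIs, at least 1 UMI over Cd3d, Cd3e and Cd3g, at least 1 UMI of Fcer1g, and 0 UMIs of Klrb1c and of Pdcd1. A UMI (unique molecular identifier) marks 1 captured transcript molecule. In the control DN library 579 of 9309 Cd3+ barcodes met the rule (6.22%, 95% Clopper-Pearson interval 5.74 to 6.73). In the DN library from ischemia reperfusion (IR) kidneys 391 of 3951 did (9.90%, 8.98 to 10.9). Together they were 970 of 13260 DN barcodes with a Cd3 UMI. The whole series of 6 libraries held 54039 barcodes before any filter. The cells were thus chosen by their measured UMIs of Fcer1g, Klrb1c, Pdcd1 and the 3 Cd3 chain transcripts, and the levels of these 6 are a description only.

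The series held droplet single-cell RNA sequencing (10x Genomics 3' v3.1 chemistry) of T cells sorted from mouse kidney, with 1 library each of CD4+, CD8+ and DN cells from control kidneys and from IR kidneys. All mice were male, WT C57BL/6J and 7 to 8 weeks old. Control kidneys were normal kidneys without a sham operation named in the labels. IR kidneys had both pedicles clamped for 30 min, with serum creatinine read at 24 h. The sort gated live CD45+ TCR+ cells by antibodies to CD4 and CD8, with no antibody to NK1.1, PD-1 or FcRγ, so that "NK1.1 negative" means here that no Klrb1c UMI was seen. With 1 library per group and no label on how many mice went into each, no difference had a replicate check, no test across animals was possible, and every interval below covers counting error only.

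FcRγ is a small membrane chain whose cytoplasmic tail carries an immunoreceptor tyrosine-based activation motif (ITAM), the docking site for Syk-family kinases. It has no ligand of its own and signals for receptors that lack a tail motif, such as the IgG receptor CD16, the natural cytotoxicity receptor NKp46 and NK1.1. DAP12, the product of Tyrobp, does the same for activating Ly49 receptors, and DAP10, the product of Hcst, for NKG2D. In T cells the CD3 zeta chain normally fills this place, and FcRγ is known from innate-like and NK receptor-bearing T cells.

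The promoters of Fcer1g and of the Ly49A gene Klra1 are shown because these transcripts define and accompany the population, and because transcription factors of the ETS, RUNX and T-box families are active in such lymphocytes. Each run covers 250 bases before to 50 after the gene start in RefSeq, on build GRCm38.p6 (the assembly of mm10), 5' to 3' on the gene's own minus strand. Fcer1g lies at chr1:171234300-171234599 and Klra1 at chr6:130386825-130387124. Capitals mark the ETS core GGAAG, the RUNX core TGTGGT and the T-box core GGTGTG, searched on both strands, so that the reverse complement is in capitals where the match is on the other strand.
Fcer1g promoter: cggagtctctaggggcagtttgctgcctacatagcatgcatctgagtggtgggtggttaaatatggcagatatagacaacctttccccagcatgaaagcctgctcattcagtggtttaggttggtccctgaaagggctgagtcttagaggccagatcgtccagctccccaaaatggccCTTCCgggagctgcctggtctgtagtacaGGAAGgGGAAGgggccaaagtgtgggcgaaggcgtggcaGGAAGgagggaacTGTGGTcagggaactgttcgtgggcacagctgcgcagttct
Klra1 promoter: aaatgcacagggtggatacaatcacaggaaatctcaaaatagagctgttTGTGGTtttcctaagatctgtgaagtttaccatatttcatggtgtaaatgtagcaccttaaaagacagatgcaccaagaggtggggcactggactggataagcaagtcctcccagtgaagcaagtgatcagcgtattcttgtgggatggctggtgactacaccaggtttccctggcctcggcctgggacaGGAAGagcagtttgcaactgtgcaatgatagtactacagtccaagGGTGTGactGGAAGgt
The Fcer1g window held 3 GGAAG cores on the strand shown and 1 on the other, 1 TGTGGT core and 0 GGTGTG cores. The Klra1 window held 2 GGAAG cores, 1 TGTGGT core and 1 GGTGTG core, and none of the marked cores overlapped another. Over 32544 promoter windows of 300 bases, 71.3% held a GGAAG, 16.7% a TGTGGT and 19% a GGTGTG core, so that the ETS core is common in any window. A match of letters is a description of the window and not a bound site.

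The control DN library was deeper than the IR DN library, and this bears on every comparison between them. Cd3+ barcodes had a median of 8554 UMIs in the control and 1520 in the IR DN library. Within each library Fcer1g+ Klrb1c- cells were slightly deeper than the other Cd3+ barcodes, with medians of 8967 against 8533.5 UMIs in the control and 1758 against 1502.5 in the IR library. Detected genes were close, at 3071 against 3016 and 809 against 797. CPM below are the UMIs of a gene summed over a class of cells and scaled to 1000000, after mitochondrial, ribosomal and Malat1 features were removed. In the population itself 10 CPM stood for 44.8 UMIs in the control and 5.03 UMIs in the IR library. Low features of the IR cells therefore rest on very few molecules.

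The cells carried the T cell markers of the sort. Trac, Trbc1 or Trbc2, the αβ receptor constant regions, had a UMI in 576 of 579 control cells (99.5%) and 370 of 391 IR cells (94.6%), against 99.6% and 90.5% of the other Cd3+ barcodes. Trac stood at 658 CPM in the population and 722 CPM in the other barcodes of the control library, and at 730 and 807 CPM in the IR library. Cd4 had 0 UMIs in the population in both libraries, Cd8a had 4 in the control and 0 in the IR library, and Cd8b1 had 5 and 0. Trdc, the constant region of the γδ receptor, had a UMI in 8 of 579 control cells (1.38%) and in 0 of 391 IR cells, against 0.561% and 0.197% of the other barcodes. For the 0, a limit of 3 counts is a share of cells with a Trdc UMI of 0.767%. This limit is not the Clopper-Pearson interval and is tighter. Of the 3 markers of the population, Fcer1g itself had a median of 3 UMIs per control cell (highest 30) and 2 per IR cell (highest 12). Klra1 stood at 274.6 and 342.2 CPM against 130.5 and 69.6 in the other barcodes, more than 2-fold apart in both libraries. Tyrobp did not mark the control cells against all other DN T cells, at 52.7 CPM (95% Poisson interval 46.2 to 59.9) against 48.8. The other barcodes included the Fcer1g+ Klrb1c+ cells (at least 1 UMI of each and no Pdcd1 UMI), which held 201 CPM of Tyrobp. The name Fcer1g+ Klrb1c- is therefore used for the rule alone.

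Fcer1g transcripts were far more common in DN barcodes than in the other sorted cells. A Fcer1g UMI was seen in 25.6% of control DN Cd3+ barcodes but in 3.05% of the control CD4 and 2.06% of the control CD8 barcodes, whose median depths were 7267 and 6943 UMIs. In the IR libraries the shares were 15.9% for DN, 1.98% for CD4 at a median of 2441 UMIs and 1.33% for CD8 at a median of 1827 UMIs. The same rule applied to CD4 and CD8 barcodes took 156 of 9518 and 128 of 9685 in the control and 141 of 10301 and 71 of 6413 in the IR libraries, between 1.11% and 1.64%. Thinned to 1000 UMIs per barcode, these 4 shares lay between 0.638% and 1.04%, against 7.20% (607 of 8430) in the control and 9.34% (316 of 3382) in the IR DN library. Barcodes taken by the rule in the CD4 and CD8 libraries held more of the macrophage transcript C1qa, at 88.9 to 1158 CPM against 7.37 and 11.9 CPM in the DN cells. They also held more Klra1 than the other barcodes of their library, at 90.2 against 10.8 CPM (control CD4) and 86.6 against 4.12 CPM (control CD8). In the IR libraries it was at 47.4 against 5.44 and 41.5 against 2.47 CPM. Control Tyrobp was at 91.1 against 4.22 and 95.9 against 7.75 CPM. The Helios gene Ikzf2 was at 377 against 395 CPM in the control CD4 and 684 against 95.5 CPM in the control CD8 library. The shares in CD4 and CD8 barcodes were taken as the background of a Fcer1g UMI, and the DN shares were above them at both depths.

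The class "Klrb1c-" was not equally strict in the 2 DN libraries. Of all Fcer1g+ Cd3+ barcodes, 1713 of 2381 in the control (71.9%) and 229 of 627 in the IR library (36.5%) held a Klrb1c UMI, which left 24.3% and 62.4% in the population. When each control barcode was thinned to 1000 UMIs and the rule was applied again, 607 barcodes met it, but 419 of these (69.0%, 65.2 to 72.7) held a Klrb1c UMI at full depth. In the IR library the same step gave 316 barcodes, of which 61 (19.3%, 15.1 to 24.1) held one. At 500 UMIs the shares were 5.29% and 5.86% of Cd3+ barcodes. The higher share of the population in the IR library at full depth was thus close to level at 500 UMIs, while at 1000 UMIs it was 7.20% against 9.34%. The condition, the depth and the Cell Ranger version named in the file headers (5.0.1 for control, 6.0.1 for IR) changed together and cannot be told apart.

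**Figure D1:**
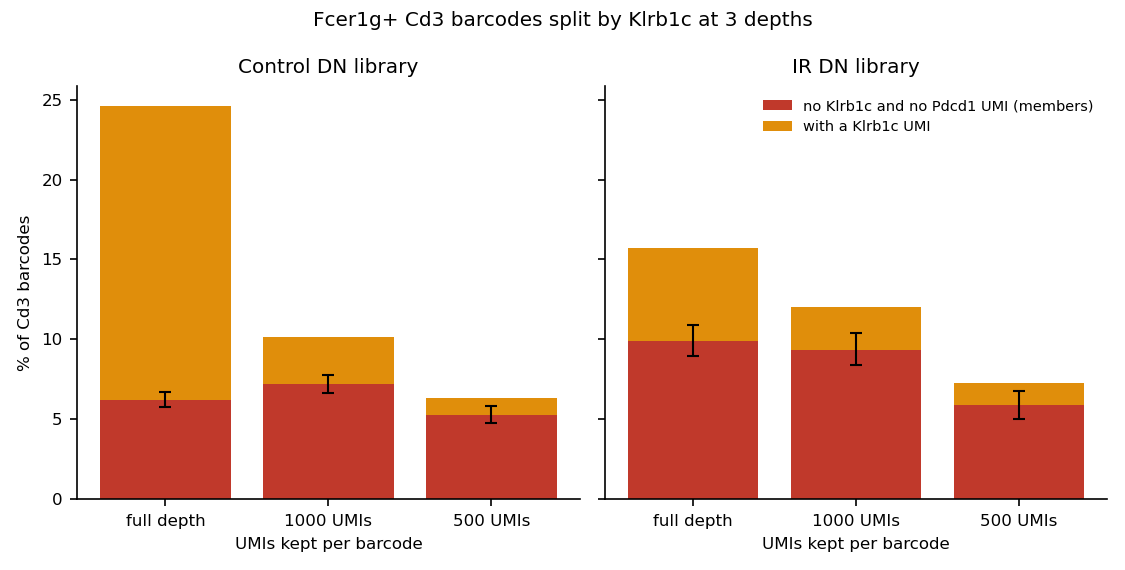
Share of Cd3+ barcodes with a Fcer1g UMI (bars from 0, in percent) at full depth and after thinning to 1000 and 500 UMIs, split by Klrb1c, with 95% Clopper-Pearson intervals on the red part; the few Fcer1g+ Klrb1c- barcodes with a Pdcd1 UMI are not drawn. At full depth the population was 6.22% of control and 9.90% of IR barcodes, and at 500 UMIs 5.29% and 5.86%.

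Against all other Cd3+ barcodes of the same library, few transcripts differed in the control and many in the shallow IR library. Features were compared where either group held at least 10 CPM, and in counts of genes higher or lower means by at least 2-fold. A feature under 10 CPM in the other barcodes entered only through the population, where it was high, so that the list counts and medians are descriptions. Among the genes of the comparisons below this held for Klrb1a and Lat2 in both libraries, for Plcg2, Id3, Eomes, H2-Aa, H2-Ab1, H2-Eb1 and Akap6 in the control, and for H2-Aa, C1qa, C1qb, Ncr1, Fcgr3, Crtam, Cd244a, Ccl3 and Klra6 in the IR library. Of 8902 such features in the control, 78 were at least 2-fold higher in the population (0.876%) and 15 at least 2-fold lower (0.169%). In the IR library 291 of 8963 were higher (3.25%) and 518 lower (5.78%). For all 78 and 15 control features the counting interval of the ratio lay on 1 side of 0. With 44.8 UMIs at 10 CPM the 2-fold limit alone brings this about, so that it is no check of the calls. The interval does not cover UMIs held by few barcodes, as for Ccl1 and Akap6, with 98.8% and 97.4% in 5 control barcodes. In the IR library the interval lay on 1 side of 0 for 222 of 291 and 259 of 518 features. In both libraries 39 of 8288 features were higher (0.471%) and 11 lower (0.133%). The median log2 ratio over all features compared was 0.01 in the control and -0.07 in the IR library. The other barcodes were a different mix in each library, with 1586 Fcer1g+ Klrb1c+ cells of 8730 in the control and 227 of 3560 in the IR library. The part of this mix in the ratios, those of Tyrobp and the Ly49 genes among them, was not tested.

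Among the adaptors themselves, only Tyrobp passed 2-fold in either library. Of 7 adaptor genes listed, 3 reached 10 CPM outside the rule genes, with 0 higher in the control and 1 in the IR library. Tyrobp stood at 52.7 CPM against 48.8 in the control (log2 ratio 0.11, interval -0.09 to 0.30) and at 201 CPM against 41.5 in the IR library (2.28, 1.91 to 2.64). Against cells with none of the 3 transcripts (no Fcer1g, Klrb1c or Pdcd1 UMI), which held 5.99 and 15.8 CPM of Tyrobp, the population was higher in both libraries, by log2 ratios of 3.14 and 3.67. In the control Tyrobp reached 10 CPM in this comparison only through the population, so that the ratio is a description. The DAP10 gene Hcst did not differ by more than its counting interval in the control, at 886 against 898 CPM, and was at 1598 against 1300 CPM in the IR library (log2 ratio 0.30, 0.19 to 0.40). Cd247, the CD3 zeta chain whose place FcRγ can take, did not differ by more than its counting interval, at 271.5 against 273.2 CPM and 113 against 126 CPM.

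The kinases and scaffolds downstream of the ITAM were mostly level as well. Of 30 genes of ITAM signalling, 23 were compared in the control and 21 in the IR library, and 2 were higher in each. Lat2, the linker NTAL that stands in for LAT under FcRγ-coupled receptors in myeloid and B cells, was higher in both, at 18.8 against 6.62 CPM and 25.9 against 4.87 CPM. The Src-family kinase Lyn was at 42.2 against 23.1 CPM in the control and 65.7 against 17.6 CPM in the IR library. Plcg2 was at 17.7 against 7.36 CPM in the control and rested on 5 UMIs in the IR cells. Zap70, the T cell member of the Syk kinases, was at 206 against 212 CPM and 131 against 151 CPM, and Lat at 222 against 261 CPM and 249 against 320 CPM. The median log2 ratio of the compared genes was -0.01 in the control and -0.16 in the IR library.

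Of 14 receptors that pair with FcRγ, 3 reached 10 CPM in the control and 4 in the IR library. Klrb1a, an NKR-P1 relative of NK1.1 that was not part of the rule, was higher in both libraries, at 10.95 against 4.09 CPM and 23.9 against 4.87 CPM. Ncr1, which encodes NKp46, was at 11.2 CPM in the population and 15.3 CPM in the other barcodes of the control, and 23.9 against 5.33 CPM (12 UMIs) in the IR library. Fcgr3, which encodes CD16, was at 5.59 against 5.65 CPM in the control and 17.9 against 5.10 CPM (9 UMIs) in the IR library. The IR values of Klrb1a, Ncr1 and Fcgr3 all rest on few molecules.

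Of the Ly49 receptor genes Klra1, Klra6 and Klra7 were higher in the population in both libraries. These lectin-like receptors bind class I MHC molecules, and most carry inhibitory motifs, while a few signal through DAP12. Of 13 listed genes 11 were in the files and 6 reached 10 CPM, of which 3 were at least 2-fold higher in the control and 6 in the IR library, with median log2 ratios of 1.003 and 2.26. Klra7 (Ly49G) was at 283 against 97.98 CPM in the control (log2 ratio 1.53, 1.44 to 1.62) and 364 against 46.4 CPM in the IR library (2.97, 2.68 to 3.27). Klra6 was at 54.1 against 14.9 CPM and 57.7 against 9.74 CPM, and Klra1 (Ly49A) had log2 ratios of 1.07 and 2.30. Klra5, Klra3 and Klra9 (Ly49I) were below 2-fold in the control, with log2 ratios of 0.93, 0.77 and 0.58, and above it in the IR library, with 2.23, 1.79 and 1.86. The Ly49 genes are close copies of each other on chromosome 6, so that counts of single members may be partly lost or exchanged in counting.

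Ly49 transcripts were also counted per cell. At least 1 UMI of any Ly49 gene was seen in 359 of 579 control cells (62.0%, 57.9 to 66.0) and 203 of 391 IR cells (51.9%, 46.8 to 57.0). Of cells with none of the 3 transcripts 12.1% in the control (median 8130 UMIs) and 6.14% in the IR library (median 1449.5 UMIs) held one, and in the CD4 libraries 4.72% and 1.64%. Thinned to 1000 UMIs per barcode the population held a Ly49 UMI in 35.1% and 37.6% of cells, against 4.52% and 4.46% of cells with none of the 3 transcripts. In the control 40.1% of the population held UMIs of 2 or more Ly49 genes, against 3.64% of cells with none of the 3 transcripts. The Fcer1g+ Klrb1c+ cells held more, with any Ly49 UMI in 80.0% and 58.2% of cells and 2 or more Ly49 genes in 56.5% in the control.

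Receptors of the NKG2 and CD94 group mostly stayed below 2-fold. Of 8 genes, 7 were compared in each library, with 0 higher in the control and 1 in the IR library and median log2 ratios of 0.52 and 0.89. Klre1, whose product pairs with other lectin-like chains, was at 343 against 205 CPM and 354 against 122 CPM. Klrd1 (CD94) was at 448 against 290 CPM and 965 against 493 CPM, and Klrk1 (NKG2D) at 812 against 578 CPM and 680.5 against 420.9 CPM. At 1000 UMIs per barcode 71.1% of the population in both libraries held a UMI of this group, against 31.5% and 43.2% of cells with none of the 3 transcripts.

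Among 18 other NK and innate-like receptors, Cd7 and Crtam were at least 2-fold higher in both libraries. Cd7, an immunoglobulin-family receptor of T and NK cells, was at 340 against 129 CPM (log2 ratio 1.40, 1.32 to 1.48) and 464 against 82.8 CPM (2.49, 2.24 to 2.73). Crtam was at 28.8 against 12.5 CPM and 17.9 against 5.80 CPM. Cd160, a receptor for HVEM on cytotoxic cells, was at 218 against 118 CPM and 281 against 96.0 CPM, and Cd244a (2B4) at 31.1 against 16.6 CPM and 15.9 against 3.25 CPM. Both had control ratios just under 2-fold.

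**Figure D2:**
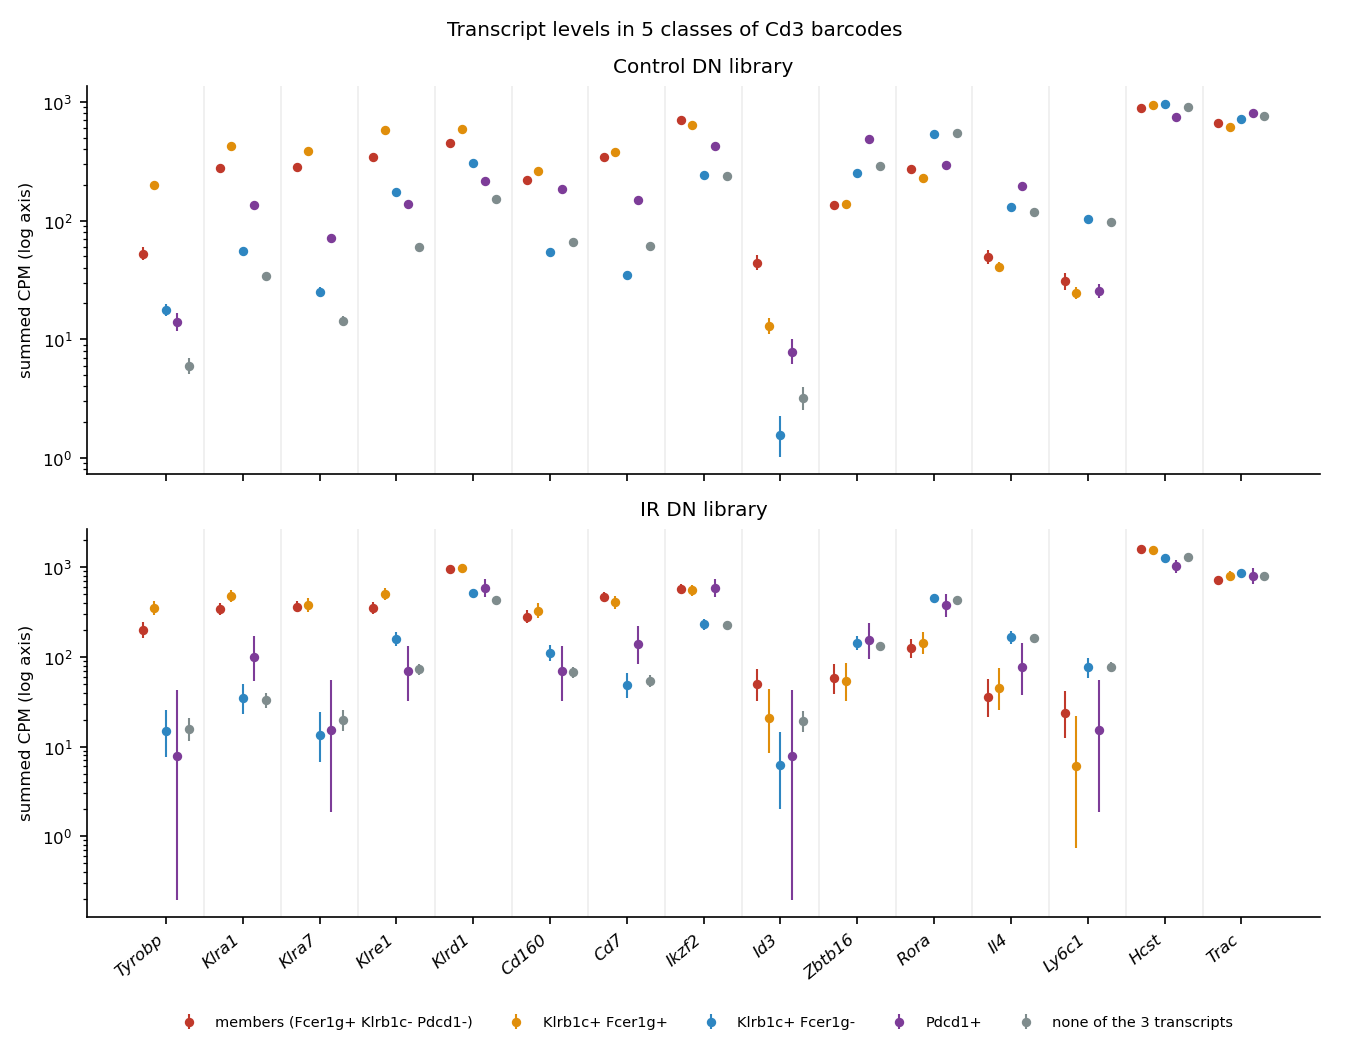
Summed CPM (log axis) of 15 transcripts in 5 classes of Cd3+ barcodes of the control (top) and IR (bottom) DN libraries, with 95% Poisson intervals of the counts; red is the Fcer1g+ Klrb1c- population. Its Klra1, Klra7, Cd7, Cd160 and Ikzf2 levels lay above those of cells with none of the 3 transcripts, while Hcst and Trac were close in all classes.

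A few lineage transcription factors differed from the other barcodes, in both directions, and most did not reach 2-fold. Ikzf2, Id3 and Zbtb16 alone were past 2-fold in both libraries, and the median log2 ratios were -0.17 in the control and -0.32 in the IR library. Of 33 lineage factors, 28 were compared in the control, with 4 higher and 1 lower, and 27 in the IR library, with 4 higher and 3 lower. Ikzf2, which encodes Helios, was at 701 against 343 CPM and 577 against 265 CPM. Id3, an inhibitor of E proteins, was at 44.2 against 5.33 CPM in the control (log2 ratio 3.05, 2.79 to 3.31) and 49.7 against 16.5 CPM in the IR library (1.60, 0.88 to 2.27). Id3 UMIs lay in 67 of 579 control cells. Tcf7, which encodes TCF1, was at 164 against 79.3 CPM and 173 against 90.0 CPM. Eomes was at 17.0 against 3.60 CPM in the control and rested on 4 UMIs in the IR cells, while Tbx21 (T-bet) was at 320 against 363.5 CPM and 153 against 144 CPM.

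The factor that was lower in both libraries was Zbtb16, which encodes PLZF, the factor of NKT and other innate-like T cells. Zbtb16 was at 135 against 275 CPM in the control (log2 ratio -1.03, -1.15 to -0.91) and 57.7 against 130 CPM in the IR library (-1.17, -1.76 to -0.63). Rora was at 272 against 445 CPM and 125 against 409.5 CPM, and Maf at 316 against 482 CPM and 229 against 396 CPM. Rora passed 2-fold in the IR library alone. Of 10 listed marker genes of invariant NKT and mucosal-associated invariant T cells, 6 were compared, with Zbtb16 lower in the control (median log2 ratio -0.07), Zbtb16, Icos and Mr1 lower in the IR library (-1.08), and 0 higher in either.

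Some recirculation genes were higher in both libraries and Ly6c1 and Ccr9 lower. Of 12 naive and recirculation genes, 4 of 10 compared were higher and 1 lower in the control, and 3 of 9 higher and 1 lower in the IR library. S1pr1, the receptor for exit from tissue, was at 62.3 against 30.6 CPM and 106 against 34.8 CPM. The lower gene of that list was Ly6c1, at 30.8 against 74.3 CPM and 23.9 against 69.6 CPM. Among homing receptors Ccr9 was lower in both, at 21.7 against 43.5 CPM in the control and on 1 UMI in the IR cells. Icos, Il2ra, Ccr2 and Ly6a did not reach 2-fold in the control, with log2 ratios of -0.65, -0.81, -0.76 and -0.64, and had IR ratios of -1.24, -1.67, -0.97 and -1.31.

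Among cytokines, Il4 was the gene that was lower in both libraries. Il4 was at 49.6 against 117 CPM in the control (log2 ratio -1.23, -1.43 to -1.04) and 35.8 against 151 CPM in the IR library (-2.08, -2.84 to -1.41). Ifng did not differ by more than its counting interval, at 456 against 474 CPM and 1021 against 997 CPM. Csf2 was at 41.8 against 30.8 CPM in the control and 27.9 against 124 CPM in the IR library (14 UMIs). In the control 5 barcodes held 52.9% of the Csf2 UMIs of the population, and without the 5 highest barcodes of each group it was at 19.7 against 26.6 CPM. Here and below this step takes 5 barcodes from groups of unlike size, 579 against 8730 in the control, and leaves the totals unchanged. It takes a larger share of the population than of the other barcodes, and its values are a description. The remaining cytokines of 21 listed were below 2-fold in both libraries or under 10 CPM.

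Of 9 chemokines 6 were compared, with 2 higher in the control and 3 higher and 1 lower in the IR library. Ccl1 was among them both times, higher in the control, where 5 barcodes held 98.8% of its UMIs, and lower in the IR library. Ccl5 was at 2603 against 1552 CPM and 13130 against 4317 CPM, the highest level of the chemokines, and Ccl3 at 23.9 against 11.2 CPM and 33.8 against 8.58 CPM. In the control 5 barcodes held 55.1% of the Ccl3 UMIs of the population, and without the 5 highest barcodes of each group it was at 10.7 against 7.34 CPM, under 2-fold. Xcl1 was at 884 against 797 CPM and 1729 against 1261 CPM. Of 16 granule genes, 0 of 13 compared were higher or lower in the control and 3 of 14 were higher in the IR library. Gzma was at 44.7 against 78.8 CPM in the control and 501 against 131.5 CPM in the IR library. Few cells held these molecules. In the population 5 barcodes carried 64% of the Gzma UMIs in the control and 69.0% in the IR library. Without the 5 highest barcodes of each group, 5 of 391 and 5 of 3560, IR Gzma was at 155 against 79.1 CPM, under 2-fold. Under the 15 alternative settings given below, which do not include this step, its IR log2 ratio was past 2-fold each time (lowest 1.07). Gzmb was at 84.0 against 69.0 CPM and 199 against 79.3 CPM, and Prf1 (perforin) at 59.2 against 54.1 CPM and 27.9 against 19.9 CPM.

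Of the 30 transcripts named by rank over both libraries, 15 higher and 15 lower, several fall outside the lists above. The higher ones included Aff3, at 183 against 58.5 CPM and 113 against 29.7 CPM, and Nr4a2, an orphan nuclear receptor induced by antigen receptor signals, at 191.5 against 75.1 CPM and 129 against 43.8 CPM. Atp1b1 had log2 ratios of 1.21 and 1.92, Klhdc2 of 1.14 and 2.08, and Fgf13 of 1.30 and 0.97. The lower ones included Ckb, Itgb3, Socs2, Podnl1, Bcl2a1d and Tmem106b, whose control log2 ratios ran from -0.86 to -0.62 and did not reach 2-fold. They were lower in the IR library too, since the ranking used both libraries, so that their shared direction is part of how they were chosen. Of 10 genes that the study singled out for DN T cells, 8 were compared and 0 passed 2-fold in the control, and Klre1 alone did in the IR library, and the potassium channel gene Kcnq5 was at 1699 against 2336 CPM and 491.5 against 858.9 CPM. That list was drawn from these libraries and is not independent evidence.

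**Figure D3:**
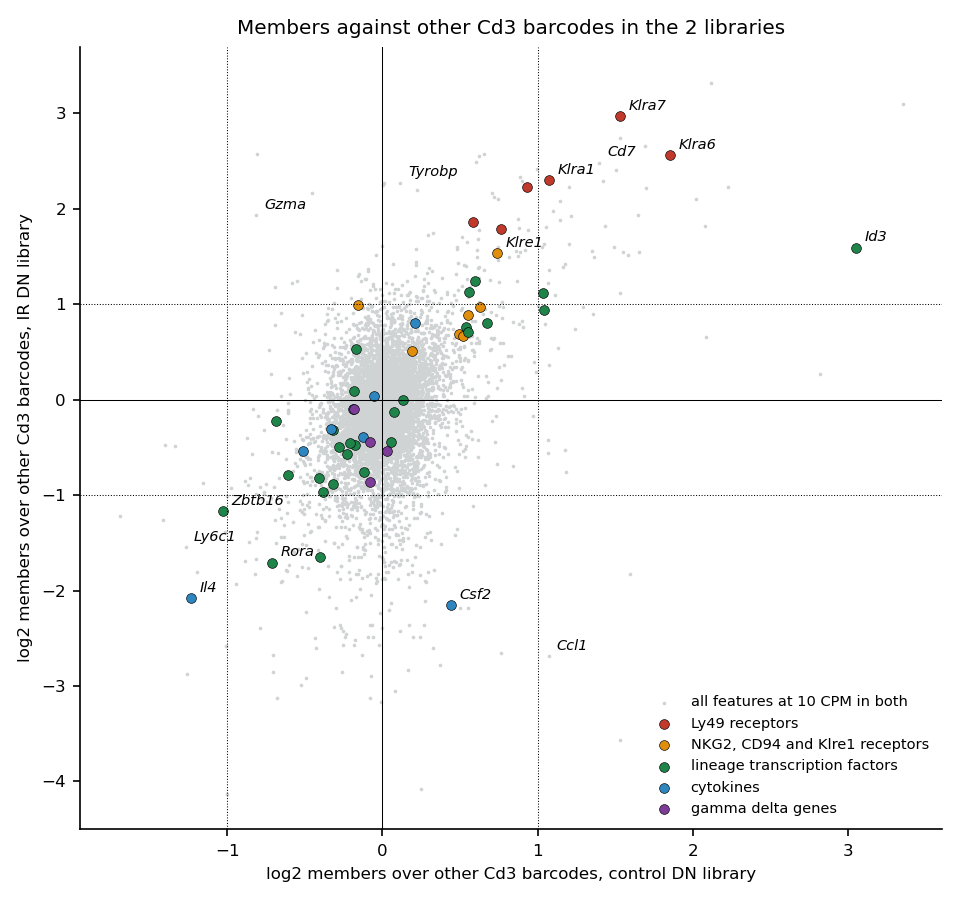
Log2 ratio of the population over the other Cd3+ barcodes in the control (x axis) and IR (y axis) DN libraries for every feature that reached 10 CPM in either group of both libraries, with 5 gene lists in colour and dotted lines at 2-fold. Ly49 genes and Id3 lay up and to the right, Zbtb16, Il4 and Ly6c1 down and to the left, and Ccl1 and Csf2 down and to the right, where 5 barcodes held 98.8% and 52.9% of the control UMIs of the population.

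The class with the fewest differing features in the control was the Fcer1g+ Klrb1c+ cells, of which there were 1586 in the control and 227 in the IR library, at median depths of 9047.5 and 1801 UMIs. Against them the control population had 84 of 8909 features at least 2-fold higher (0.943%) and 14 lower (0.157%). In the IR library 604 of 8881 were higher (6.8%) and 669 lower (7.53%). Tyrobp was lower, at 52.7 against 201 CPM in the control (log2 ratio -1.93, -2.13 to -1.73) and 201 against 355 CPM in the IR library (-0.82, -1.22 to -0.43). Ncr1 was at 11.2 against 70.2 CPM and 23.9 against 57.2 CPM, Gzma at 44.7 against 167 CPM and 501 against 801 CPM, and Klra9 at 124 against 270 CPM and 103.5 against 129 CPM. Ikzf2, Cd7 and Zbtb16 lay close, with control log2 ratios of 0.14, -0.15 and -0.03. Id3 was higher than in this class, at 44.2 against 13.0 CPM in the control (1.77, 1.47 to 2.08) and 49.7 against 21.1 CPM in the IR library, where the interval reached -0.01. Themis, a regulator of T cell receptor signals, was also higher in the control, with a log2 ratio of 0.67, and not in the IR library, with -0.18 (-1.12 to 0.79).

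Against cells with none of the 3 transcripts the control population had 151 of 8925 features higher (1.69%) and 42 lower (0.471%), and the IR population 323 of 9030 higher (3.58%) and 576 lower (6.38%). Klra7 was at 283 against 14.3 CPM (log2 ratio 4.31) and Klra1 at 275 against 34.2 CPM (3.01). In the IR library Klra7 and Klra1 had ratios of 4.21 and 3.38 against the same class. Clnk, an adaptor of the SLP-76 family, was at 117 against 31.6 CPM and Cd7 at 340 against 61.2 CPM in the control. Themis was lower, with log2 ratios of -0.85 and -1.81. Against Klrb1c+ Fcer1g- cells 203 features were higher (2.27%) and 40 lower (0.447%) in the control, and 484 (5.44%) and 655 (7.36%) in the IR library. Against Pdcd1+ cells 133 were higher (1.47%) and 167 lower (1.85%) in the control, and 766 (8.36%) and 1471 (16.1%) in the IR library, where only 90 Pdcd1+ cells were found. Tyrobp, Ncr1, Klra1, Klra7, Klra9, Cd7 and Cd160 thus lay between the 2 classes in the control, below cells with both Fcer1g and Klrb1c and above cells with none of the 3 transcripts. This order is a description of levels, and Tyrobp was under 10 CPM in the cells with none of the 3 transcripts.

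Within the population the levels of several transcripts were set beside the number of Fcer1g UMIs, the value that chose the cells, as a description. In the control 200 cells had 1 Fcer1g UMI, 210 had 2 to 4 and 169 had 5 or more, and in the IR library 175, 183 and 33. Control Klra7 was at 14.3 CPM in cells with none of the 3 transcripts and at 89.9, 265 and 498 CPM over the 3 steps, and Tyrobp at 5.99, 13.8, 42.7 and 103 CPM. Ikzf2 was at 238, 385, 548.5 and 1189 CPM, while Zbtb16 was at 286, 212, 123 and 70.3 CPM. The IR cells ran the same way for Klra7, at 19.8, 233, 288 and 1180 CPM, and for Tyrobp, at 15.8, 133, 174 and 572 CPM. Klra1, at 34.2, 126, 276 and 423 CPM, and Cd160, at 65.6, 115.5, 229 and 310 CPM, were also higher at each step in the control, whereas Klrc1, Klrc2, Klre1 and Klra5 were not. Klrc1 (NKG2A) was at 143, 309, 370 and 272 CPM in the control and 208, 408, 322 and 107 CPM in the IR library, and Klra5 at 15.9, 74.0, 130 and 120 CPM and 16.1, 142.5, 165 and 17.9 CPM. Median depth also ran with the step, from 8130 to 9931 UMIs in the control and from 1450 to 2259 in the IR library. At 1000 UMIs per barcode the share of control cells with a Klra7 UMI was 0.888%, 5.53%, 12.9% and 21.9%, and that with a Tyrobp UMI was 0.444%, 0.503%, 2.38% and 5.33%. Hcst shares stayed between 44.7% and 51.5% in the control.

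**Figure D4:**
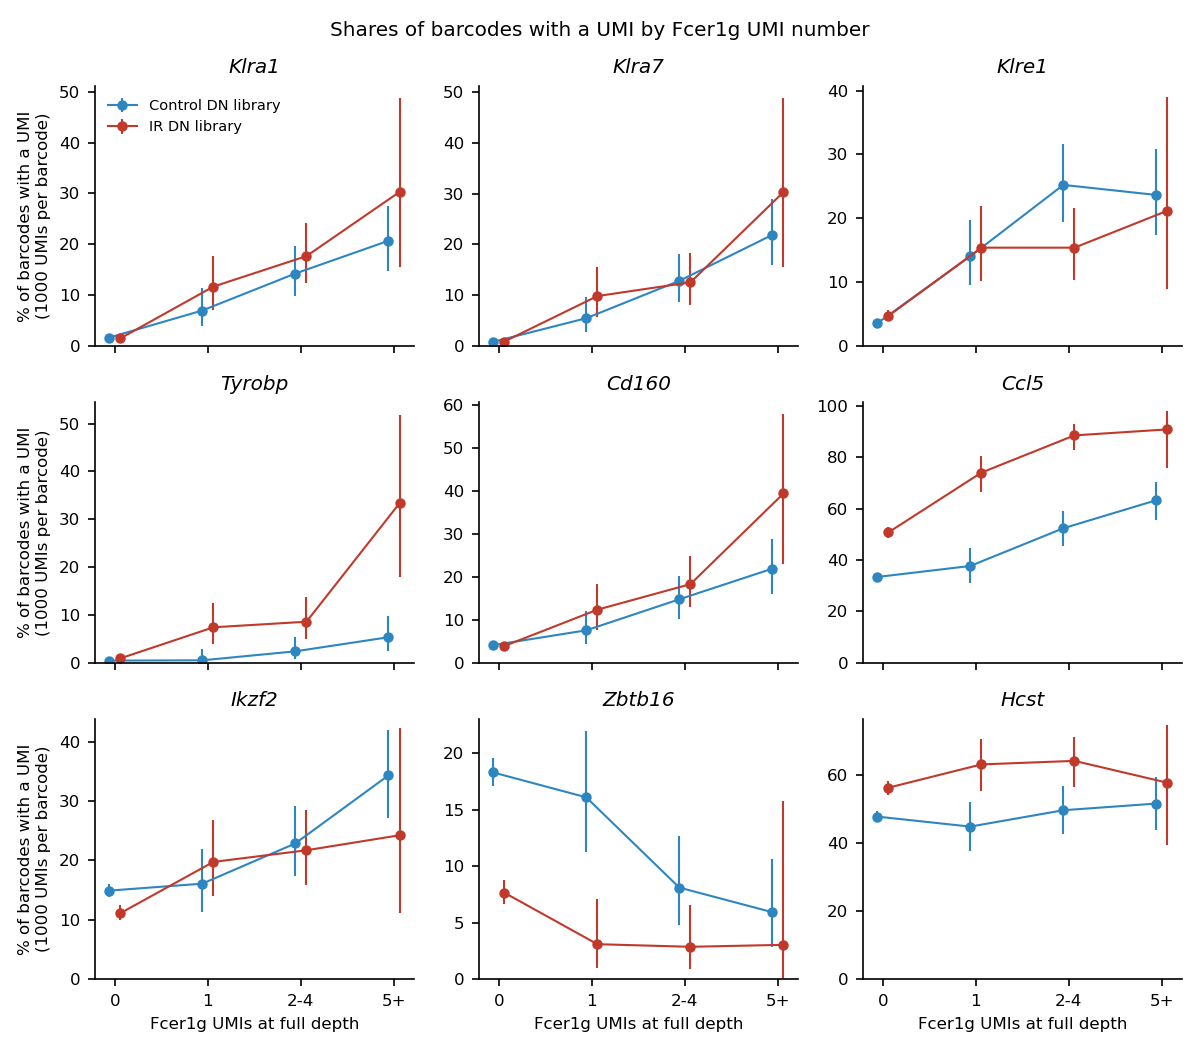
Percent of barcodes with a UMI of 9 transcripts after thinning to 1000 UMIs, by the number of Fcer1g UMIs at full depth (0 is the class with none of the 3 transcripts), in the control and IR DN libraries, with 95% Clopper-Pearson intervals. In the control the Klra7 share was 0.888% at 0 and 21.9% at 5 or more Fcer1g UMIs, and the Zbtb16 share 18.3% and 5.92%.

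The population was also divided by Ly49 transcripts, into 359 control cells with a Ly49 UMI and 220 without. In the control, cells with a Ly49 UMI had 469 CPM of Cd7 against 121 CPM in those without, 952 against 273 CPM of Ikzf2, and 63.4 against 11.5 CPM of Id3. In cells with none of the 3 transcripts Cd7 was at 61.2 and Ikzf2 at 238 CPM. Klrc1 and Klrk1 differed less between the 2 groups, at 328 against 304 CPM and 900.3 against 661 CPM, with 143 and 349 CPM in cells with none of the 3 transcripts. The lower genes went the other way, with Zbtb16 at 88.9 against 214 CPM, Il4 at 18.1 against 104 CPM, Ly6c1 at 10.98 against 64.8 CPM and Rora at 183 against 424 CPM. Median depth was 9221 against 8574 UMIs. Hcst was equal, at 886 against 885 CPM.

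In the IR library 203 cells had a Ly49 UMI and 188 did not, at median depths of 1897 and 1582 UMIs. Tyrobp was at 221 against 175.5 CPM, with intervals that overlapped, and Cd7 at 553 against 351 CPM. Zbtb16 was at 35.7 against 85.5 CPM and Rora at 74.9 against 189 CPM. Cells on both sides of the division were above cells with none of the 3 transcripts for Tyrobp and Cd7, which were at 15.8 and 54.0 CPM there.

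**Figure D5:**
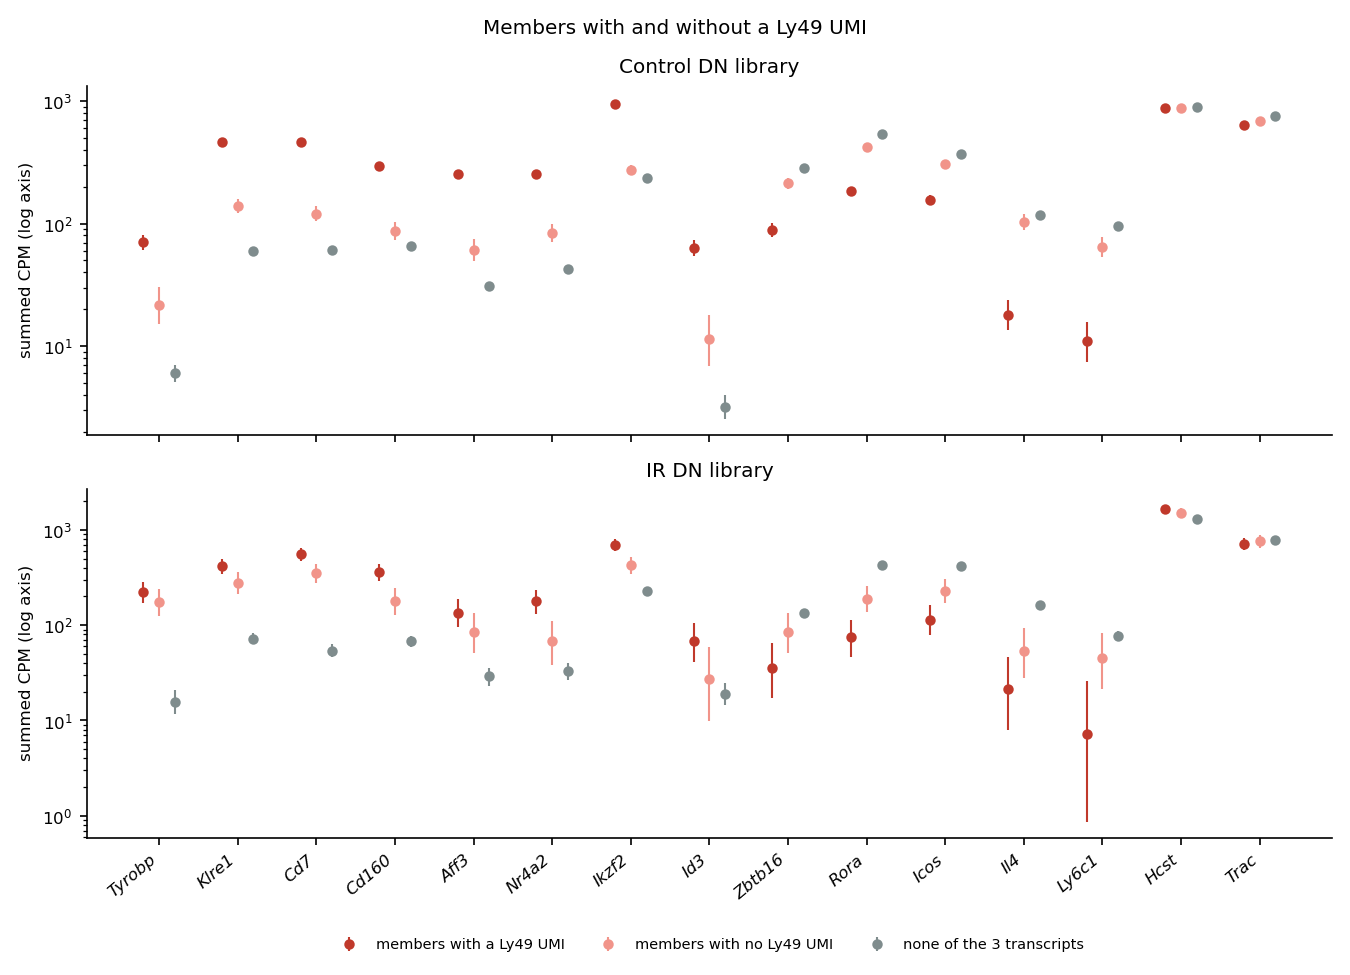
Summed CPM (log axis) of 15 transcripts in the population with and without a Ly49 UMI and in cells with none of the 3 transcripts, in the control (top) and IR (bottom) DN libraries, with 95% Poisson intervals. In the control Ikzf2 was at 952, 273 and 238 CPM and Il4 at 18.1, 104 and 119 CPM over these 3 groups.

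Receptor variable segments were read from few cells, and neither chain pairing nor junctions were measured. A Trbv UMI was seen in 242 of 579 control cells (41.8%), over 20 segments, and in 39.8% of the other barcodes, over 24 segments. Trav UMIs were seen in 124 control cells (21.4%), over 52 segments, against 15.8% of the other barcodes. In the IR library 49 of 391 cells held a Trbv UMI (12.5%) and 35 a Trav UMI (8.95%), against 10.96% and 5.84%. Of 18 listed γδ genes 11 were in the files, of which 4 were compared in each library and 0 were higher or lower.

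Markers of other cells were measured beside these results, because FcRγ and DAP12 are abundant in myeloid cells and NK cells. Myeloid markers summed to 28.4 CPM in the control population against 7.26 CPM in the other barcodes and to 65.7 against 17.2 CPM in the IR library, and a UMI of any of the 14 was seen in 29 of 579 (5.01%) and 14 of 391 (3.58%) cells, against 3.25% and 1.38%. Of the 14 markers 11 had a UMI in the control and 9 in the IR population, while the neutrophil markers S100a8, S100a9 and Csf3r were at 0 in both. C1qa was at 7.37 against 1.12 CPM and 11.9 against 2.32 CPM, with 87.9% of its control UMIs in 5 barcodes. Class II and dendritic cell genes summed to 136 against 77.0 CPM and 71.6 against 60.3 CPM, with Cd74 at 56.1 against 19.4 CPM and 37.8 against 17.4 CPM and the dendritic markers Clec9a and Siglech at 0 in both. This list also holds Ccr9, which T cells use for homing and which was lower in the population. Of its 5 genes compared in the control H2-Aa, H2-Ab1, H2-Eb1 and Cd74 were higher (median log2 ratio 1.93), with H2-Aa at 17.4 against 4.01 CPM, and in the IR library at 13.9 against 1.39 CPM. The share of cells with a UMI of the whole list was 19.9% against 23.4% in the control. In the control 5 barcodes held 71.3% of the Cd74 UMIs. Leaving out every barcode with a myeloid marker, H2-Aa, H2-Ab1, H2-Eb1 or Cd74 UMI left 484 and 365 cells. Over 15 alternative settings, this one included, the lowest log2 ratio of Klra7 was 1.48 in the control and 2.62 in the IR library. For Klra1 the lowest were 0.91 and 2.13, for Cd7 1.30 and 2.40, and for Tyrobp 0.004 and 2.17. Values that changed sign are given below, and the part of such barcodes in the results was not tested further.

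Other marker lists were summed in the same way. B cell markers summed to 200 against 167.5 CPM and 149 against 112 CPM, nearly all of it Ighm at 193 against 164 CPM and 131 against 95.3 CPM. NK cell markers other than Klrb1c summed to 209 against 216 CPM in the control and 599 against 188 CPM in the IR library, where Gzma alone gave 501 CPM, with 69.0% of its UMIs in 5 barcodes. Mast cell, basophil and ILC2 markers summed to 181 against 213 CPM and 221 against 336 CPM, with the mast cell receptor chains Fcer1a and Ms4a2, which use FcRγ, at 0 in both. Platelet and erythroid markers summed to 2.68 against 2.82 CPM and 9.95 against 25.3 CPM, and kidney tubule and endothelial markers to 48.3 against 51.2 CPM and 43.8 against 51.9 CPM. Barcode sequences shared with another library made up 1.73% and 0.767% of the population and 1.08% and 0.899% of the other barcodes.

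Between IR and control, features were compared in the population and, separately, in the other Cd3+ barcodes. Of 9290 features, 796 were at least 2-fold higher in the IR population (8.57%) and 1762 lower (19.0%). The counting interval lay on 1 side of 0 for 740 of the higher and 1410 of the lower ones. Of the lower ones 999 had fewer than 10 UMIs in the IR population. Among the other barcodes 759 of 9223 were higher (8.23%) and 970 lower (10.5%). The median log2 ratio over all features was -0.33 in the population and -0.26 in the others. Heat shock genes were lower in both, with 7 of 9 in the population and 6 of 9 in the others. Hspa1b was at 1603 CPM in the control and 161 CPM in the IR population (log2 ratio -3.31), and at -3.46 in the others. Top2a, a gene of dividing cells, was at 79.5 CPM on 356 UMIs and 3.98 CPM on 2 UMIs (-4.32, -7.37 to -2.46), against -1.69 in the others. Among the higher features Srrm4 went from 1 to 52 UMIs (8.86, 6.31 to 14.2), and by 8.96 in the others.

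A few transcripts of the population had IR to control ratios apart from those of the other barcodes. Tyrobp had a log2 ratio of 1.93 (1.58 to 2.27) in the population and -0.23 in the others, Gzma of 3.49 and 0.74, and Ccl5 of 2.34 and 1.48. Klra7 had 0.36 (0.13 to 0.59) in the population and -1.08 in the others, and Klra1 0.32 and -0.91. Ikzf2 was nearly alike, at -0.28 and -0.37. Fcer1g+ Klrb1c+ cells were 1586 of the 8730 other barcodes in the control and 227 of 3560 in the IR library. In those cells Klra7 was at 383 and 382 CPM and Klra1 at 421 and 479 CPM. In cells with none of the 3 transcripts Klra7 was at 14.3 and 19.8 CPM and Klra1 at 34.2 and 32.9 CPM. Of the control barcodes that met the rule at 1000 UMIs, 69.0% held Klrb1c at full depth. Fcer1g+ Klrb1c+ cells had more Tyrobp and Gzma than the population in both libraries. The differences between the 2 sets of ratios were not tested, nor was any part of depth or class make-up in them.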

How the data were processed

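Kidney T cells of male C57BL/6J mice were sorted and sequenced as 6 libraries, 1 per sort and condition. The authors aligned reads to mm10 and counted UMIs per gene with Cell Ranger, and deposited raw counts, with 6.0.1 named in the labels and 5.0.1 in the headers of the 3 control libraries. The DN libraries held 9525 control and 4705 IR barcodes with 89497612 and 7787822 UMIs, of which 9309 and 3951 passed the filters and held a Cd3 UMI.

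UMIs were summed over each class of barcodes, 104 mitochondrial, ribosomal and Malat1 features of 32285 were left out (21.7% and 30.6% of UMIs), and CPM were computed in Python 3.11.15 with numpy 2.4.6, pandas 2.3.3 and scipy 1.17.1. Figures used matplotlib 3.10.9. A feature was compared at 10 CPM or more in either group and called at 2-fold or more, with a count of 0 set to 3 counts. Intervals are 95% exact Poisson (CPM), conditional binomial (ratios) and Clopper-Pearson (shares), and cover counting error only. With 1 library per group no p-value was computed. No doublet caller was run, and leaving out the top 5% of barcodes by UMIs was 1 of the alternatives, which also included TMM scaling (edgeR 4.0.16 in R 4.3.3). Named genes were the 15 in each direction with at least 50 CPM whose smaller ratio over both libraries was largest, and 10 in each direction for IR over control. Thinning drew UMIs without replacement. The calculations were checked on simulated data. The cells, the 34 gene lists and the rule for named genes were chosen with earlier results of these data known. Gene positions came from GENCODE M21 (99.8% of features matched). No column of per-sample values was left out. A few genes of the lists are counted but not reported here by name.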

Additional observations from a re-analysis of the deposited data

Results flagged for a closer look

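For 6 transcripts a ratio was past 2-fold in opposite directions, either that of the population over the other barcodes in the 2 libraries or that of IR over control in the population and in the other barcodes. None of these differences was tested, and each transcript had 23 or fewer UMIs in the IR population.

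Ccl1, a chemokine, was higher than in the other barcodes in the control (log2 ratio 1.07, 920 UMIs) and lower in the IR library (-2.69, 6 UMIs), and 5 of 579 control barcodes held 98.8% of its UMIs. Without the 5 highest barcodes of each group its control level was 2.46 against 52.8 CPM. Akap6, an anchoring protein for protein kinase A, had ratios of 1.53 (78 UMIs) and -3.57 (1 UMI), with 97.4% of its control UMIs in 5 barcodes. Gm10827, a predicted gene, had ratios of 1.60 (149 UMIs) and -1.83 (4 UMIs), with 77.9% of its control UMIs in 5 barcodes.

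From control to IR, Gm10827 had a log2 ratio of -2.07 in the population and 1.36 in the other barcodes, and Akap6 had -3.13 and 1.97. Gm13031 had -1.52 (51 and 2 UMIs) and 1.17. Ncr1, which encodes NKp46, had 1.096 in the population (50 and 12 UMIs) and -1.52 in the others, and without the 5 highest barcodes, which held 50% and 75% of its UMIs, the population was at 5.59 and 5.97 CPM. Zfp382, a zinc finger gene, had 2.16 (46 and 23 UMIs) and -1.23, and 22 of its 23 IR UMIs lay in 1 barcode.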

How the results depend on the processing

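No paired analysis was possible because each group had 1 library. The counts below are higher and lower features of the population against the other Cd3+ barcodes, which were 78 and 15 in the control, 291 and 518 in the IR library and 39 and 11 in both, with 796 and 1762 from control to IR. TMM scaling gave 469 higher in the IR library. Keeping the removed features gave 190 there and 510 higher from control to IR. With no minimum CPM, where features of few UMIs enter, the counts were 7449 and 576, 6985 and 922, 3165 and 46 in both, and 6338 higher from control to IR. At 50 CPM they were 19 and 4, 51 and 63, 11 and 3, and 310 and 780. Thinned to 1000 UMIs with classes kept they were 255 and 281, 630 and 846, and 54 lower in both. With the rule applied again they were 295 and 301, 579 and 944, and 81 and 64. At 2 or more Fcer1g UMIs they were 137 and 65, 564 and 859, and 77 and 36. Against cells with none of the 3 transcripts, a comparison without a value from control to IR, they were 151 and 42 in the control and 84 and 26 in both. Marker-positive barcodes were those with 2 or more UMIs over the myeloid, class II and dendritic, and B cell lists. These lists include Ighm and Ccr9, which the other barcodes held as well. Leaving them out kept 299 of 579 control and 368 of 391 IR cells, and 4980 of 8730 and 3441 of 3560 other barcodes. This gave 31 lower in the control. The share of the population was 7.20% in the control at 1000 UMIs, 5.29% at 500 UMIs and 5.66% without marker-positive barcodes, and in the IR library 5.86% at 500 UMIs and 10.96% at 3 or more Cd3 UMIs. The other 89 counts and shares stayed within 1.5 times or their interval. The cause of these shifts was not tested.

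Among single genes and list medians 25 called values turned sign. The antigen presentation median in the IR library was -1.59 with removed features kept, -1.86 at 3 Cd3 UMIs, -3.27 without marker-positive barcodes and -4.03 without myeloid or class II barcodes, an alternative added after seeing the data, which gave -1.30 in the control. From control to IR that median was 0.31 with the rule applied again, and the B cell median was -0.55 at 50 CPM and -0.41 with the rule applied again. Ccl1 in the control was -3.10 with the rule applied again, -0.78 without the top 5%, -4.72 at 2 Fcer1g UMIs, -5.77 without marker-positive barcodes and -1.23 under the added alternative, and from control to IR 0.59, 1.21 and 3.76 with the rule applied again, at 2 Fcer1g UMIs and without marker-positive barcodes. Akap6 in the control was -1.82, -1.87 and -2.65 and from control to IR 2.76, 0.59 and 1.37 with the rule applied again, without marker-positive barcodes and under the added alternative. Cd74 in the control was -0.51 with the rule applied again, and Ncr1 from control to IR was -0.53 thinned with classes kept and -1.70 with the rule applied again. The 30 named genes were chosen for a ratio of the same sign in both libraries, so that a kept sign is no sign of stability, and several crossed 2-fold: Ikzf2 and Zbtb16, past it in the control, stayed past it in 11 and 9 of 15 settings, and Tcf7, below it in the IR library, was past it in 4. Gzma, Ncr1 and Csf2, below 2-fold in the control, kept their control sign in 13, 11 and 14 of 15, and Csf2 was at -0.56 with the rule applied again.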

Other observations

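Further gene groups were compared with the other Cd3+ barcodes. Of 12 immediate early genes 0 passed 2-fold in either library. Of 12 coinhibitory receptors 5 were compared in the control and 7 in the IR library, with 0 higher or lower. Of 9 costimulatory genes Tnfsf8, which encodes CD30 ligand, was higher in both libraries, and Icos and Tnfrsf4 were lower in the IR library. Of 14 tissue residency genes 13 were compared, with 1 higher (Ccl1, whose control UMIs lay to 98.8% in 5 barcodes) and 0 lower in the control. Of the same genes 0 were higher and 4 lower in the IR library, Ccl1 again among them. The chemokine receptor gene Cxcr6 was at 901 against 1137 CPM and 249 against 502 CPM.

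The interleukin 7 receptor gene Il7r was at 183 CPM in the control and 617 CPM in the IR population, and at 139 and 684 CPM in the other barcodes. The T cell receptor tuning gene Themis was at 324 against 451 CPM and 47.8 against 163 CPM.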
